A study of Mus musculus with 74 samples.

Results

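The cytosolic ribosomal protein genes are described here in the RNA of mouse macrophage-like cells that carry edited genes for the histone variant H3.3 or not, before and after lipopolysaccharide (LPS). Members were the genes whose symbols begin with Rpl or Rps followed by digits and at most a closing a, x or l, together with Rplp0, Rplp1, Rplp2 and Rpsa. Pseudogenes and the S6 kinase genes were left out, and a mean of at least 50 normalized reads over the 12 libraries of the 60 min table was required. Of 24851 genes in the tables, 80 had such a name and 76 were members, 45 of the large and 31 of the small subunit. Rpl24 at 23.2 and Rpl3l at 29.1 normalized reads fell under the limit, and Rps4l at 0.28 and Rpl39l at 0.13 far under it. Rpl29 at 108.9 and Rpl23a at 150.6 were the lowest members.

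The libraries came from line 264, line 3205 and RAW264.7, each with 2 libraries unstimulated and 2 after 60 and 2 after 120 min of LPS, which makes 9 groups and 18 of the 74 samples of the series. RAW264.7 is a macrophage-like mouse line transformed by a leukaemia virus, and the other two lines were derived from it. The series describes a hypomorphic line and CRISPR lines that lack both H3.3 genes, H3f3a and H3f3b, and the labels do not say which number belongs to which, nor give the LPS dose for the cell lines or state that a line is 1 clone. The replicates are not said to come from separate cultures, so p-values speak of the spread among these libraries alone, and that spread may be technical. All groups are bulk RNA, in which fewer cells of a kind and less RNA per cell cannot be told apart.

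Ribosomal proteins and ribosomal RNA form the subunits that translate every mRNA, and cells make most of these proteins in about equal numbers. Their mRNAs are among the most abundant of a growing cell and belong to the terminal oligopyrimidine class, which starts with a C followed by a run of C and T. The kinase mTORC1 and the RNA-binding protein LARP1 control how much of this class is translated and stored, so protein output can move without a change of mRNA. Surplus ribosomal proteins are degraded, and a few of them, Rpl5 and Rpl11 first, hold back Mdm2, the ubiquitin ligase that marks p53 for destruction. Macrophages given LPS turn on inflammatory genes within minutes and later increase growth and metabolism.

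The start of the transcript carries that pyrimidine run, and the windows of 6 members are shown because their starts in RefSeq (GRCm38.p6) begin with it. Each window has 12 bases before and 18 bases from the annotated start, 5′ to 3′ on the gene's strand, with the tract in capitals.
Rpl28, chr7:4792953-4792982, plus strand: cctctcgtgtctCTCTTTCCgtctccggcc
Rps6, chr4:86857350-86857379, minus strand: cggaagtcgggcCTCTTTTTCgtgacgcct
Rpl38, chr11:114668568-114668597, plus strand: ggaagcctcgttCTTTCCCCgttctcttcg
Rplp2, chr7:141447639-141447668, plus strand: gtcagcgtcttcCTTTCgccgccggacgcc
Rps27, chr3:90213631-90213660, minus strand: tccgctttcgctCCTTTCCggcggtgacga
Rpl15, chr14:18270969-18270998, minus strand: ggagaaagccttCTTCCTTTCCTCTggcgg

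A C at the annotated start followed by at least 4 bases that are each C or T was searched on the gene's strand only. It was present in 13 of the 67 promoter entries of the 56 members that had one, or 19.4%, against 823 of 32851 entries of all genes, or 2.51%. With a C and 6 such bases allowed to begin anywhere between 10 bases before and 12 after the start, it was found in 25 of the members' 67 entries and in 3288 of 32851. The next 3 windows belong to members without the tract at the annotated start, whose values between lines are given further on. Rpl31 holds the longer tract near its start and is missed by the first search, and neither search found a tract for Rpl37 or Rps4x.
Rpl31, chr1:39367839-39367868, plus strand: cctcctcgcctccccgtgacccggaagttg
Rpl37, chr15:5116601-5116630, plus strand: ttcctgggcggaagcttatccacaggaagt
Rps4x, chrX:102189374-102189403, minus strand: aggctgggcggagcaacccaggctccagcg

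The libraries held 13.1 M to 53.9 M reads. H3f3a stood at 172 to 236 normalized reads in line 264, 37.5 to 76.2 in line 3205 and 2055 to 3109 in RAW264.7, so both derived lines carried little of its mRNA. Summed macrophage markers were 156235 to 246110 in line 264, 221060 to 315345 in line 3205 and 389404 to 510101 in RAW264.7, with all 11 listed genes detected, and the part of that in the line comparisons was not tested. The B cell markers, 2 of 4 of which were detected, summed to 1.82 to 6.11 in line 264, 22.2 to 152 in line 3205 and 1.48 to 5.44 in RAW264.7. T and NK cell markers summed to at most 11.1 and fibroblast markers to at most 3.48 in any library. In every group replicate 2 had a higher share of reads from mitochondrially encoded genes, and over all libraries that share ran from 0.221% to 1.70%.

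Together the 76 members took 1.70% to 2.21% of the reads of a library. The share was 1.81% ± 0.16 unstimulated, 1.76% ± 0.05 at 60 min and 1.85% ± 0.03 at 120 min in line 264. It was 2.06% ± 0.21, 1.89% ± 0.09 and 1.99% ± 0.18 at the same times in line 3205, and 1.92% ± 0.005, 1.77% ± 0.01 and 1.95% ± 0.02 in RAW264.7 (SD, n = 2 libraries each). The family thus kept nearly the same share of all reads at 120 min as at 0 min in each line, and with 2 libraries against 2 an exact two-sided permutation test of these shares cannot give a p below 0.333. Large subunit members took 0.973% to 1.31% and small subunit members 0.725% to 0.896%. Reads assigned to 205 genes named as ribosomal protein pseudogenes added 0.276% to 0.375%.

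The deposited values are read counts divided by 1 size factor per library, called normalized reads here. They are not corrected for gene length, so levels are compared between samples and not between genes. On this scale each member was set against its own mean over the 18 libraries, on log2(value + 1). The median member stood 0.15 ± 0.04 below its mean in unstimulated line 264, 0.06 ± 0.09 below it in unstimulated line 3205 and 0.05 ± 0.01 below it in unstimulated RAW264.7. At 120 min it stood 0.10 ± 0.0007 above it in line 264, 0.08 ± 0.12 above it in line 3205 and 0.23 ± 0.06 above it in RAW264.7 (SD, n = 2 each). The number of members above their own mean ranged from 8 of 76 in a library to 71 of 76.

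**Figure D1:**
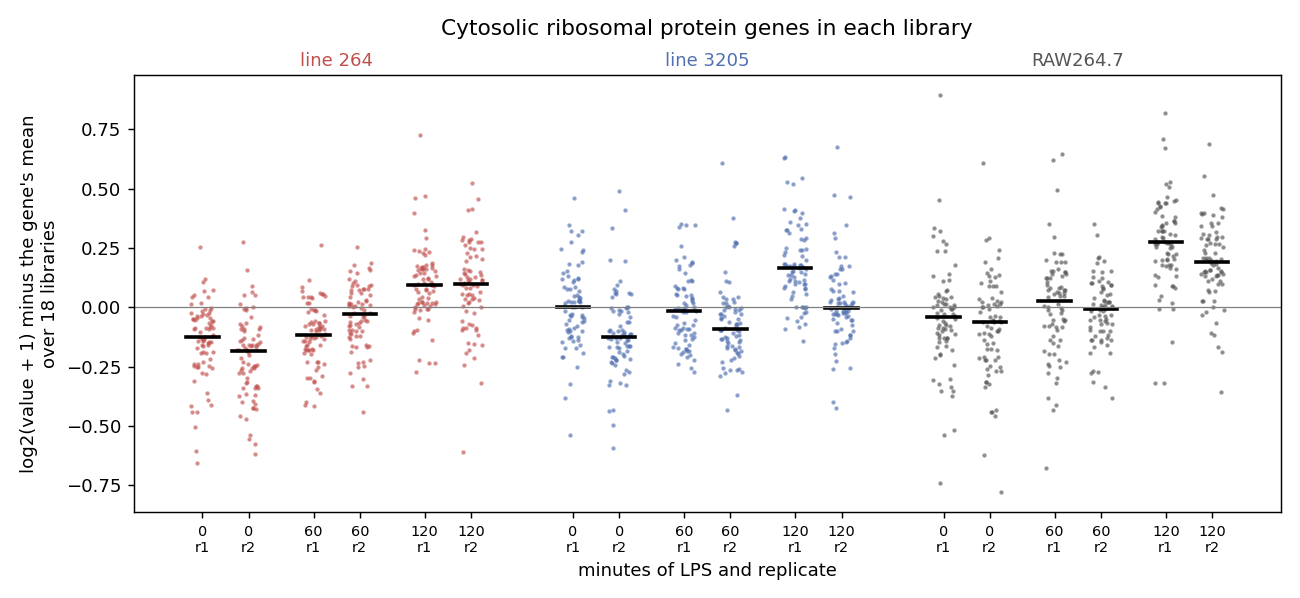
Each point is 1 of the 76 ribosomal protein genes in 1 of 18 libraries, drawn as its log2(value + 1) minus that gene's mean over the libraries, and black bars are medians. By the mean of the 2 library medians RAW264.7 at 120 min sits highest, at 0.23, and unstimulated line 264 lowest, at -0.15. In line 3205 and in RAW264.7 the median of replicate 1 lies above that of replicate 2 at each time.

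Whether LPS changes the mRNAs of the translation machinery was asked within each line. After 120 min, both treated libraries lay above both unstimulated ones for 55 members in line 264, 30 in line 3205 and 54 in RAW264.7, where 21.3%, 18.4% and 27.1% of all genes tested did so. They lay below both for 0, 2 and 0 members, beside 22.8%, 21.3% and 27.8% of all genes. The median log2 fold change of the members was 0.26 in line 264, 0.15 in line 3205 and 0.29 in RAW264.7, beside -0.01, -0.03 and 0.00 for all genes tested, and 74, 66 and 76 of 76 members had positive values. In RAW264.7 the values ran only from 0.08 to 0.50, so the members lay close together, with large and small subunit medians of 0.30 and 0.29.

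That shift is relative to other genes and depends on the scale. When each library was instead divided by its total reads, the median of all genes at 120 min moved to -0.19 in line 264, -0.18 in line 3205 and -0.23 in RAW264.7, and the median of the members to 0.07, -0.005 and 0.05, with 55, 37 and 56 of 76 positive. On both scales the members stood above the median gene, and on the library total their own level hardly moved. This scaling was chosen after seeing the data.

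A gene was called when its adjusted p in limma was below 0.05. No single member was called in any line at 120 min, where 5.43% of genes did in line 264, 5.03% in line 3205 and 10.6% in RAW264.7. The smallest adjusted p-values of a member in limma were 0.067, 0.19 and 0.070. At an unadjusted p under 0.05 limma had 17, 3 and 22 members, beside 18%, 16.6% and 23.4% of all genes. EdgeR called 0 higher in each line, beside 2.66%, 2.99% and 4.26% of all genes called higher. DESeq2 called 7, 1 and 7 higher and 0 lower, beside 5.08%, 4.95% and 7.16% of all genes called higher. With the replicate number as a block, limma called 10 members higher in line 264, 1 in line 3205 and 20 in RAW264.7, beside 7.77%, 7.18% and 11.3% of all genes. With library totals and the block it called 1, 0 and 0 higher, beside 4.87%, 4.87% and 6.2%. The members named in the next paragraphs because the block called them were chosen after their values were seen.

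Rpl28, a protein of the large subunit, had 1241 and 1246 normalized reads at 120 min in line 264, against 933 and 880 unstimulated. In line 3205 it had 1163 and 1148 at 120 min, against 1114 and 924, and in RAW264.7 1301 and 1125, against 886 and 885. The treated libraries lay above the unstimulated ones in all 3 lines, with the narrowest gap in line 3205. Its log2 fold change was 0.46 ± 0.14 in line 264, 0.19 ± 0.14 in line 3205 and 0.45 ± 0.14 in RAW264.7 (limma, ± SE), and with the block the adjusted p in limma was 0.017, 0.31 and 0.013.

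Rps27a is made as a fusion of ubiquitin and a small subunit protein, so its mRNA also supplies ubiquitin. It had 2317 and 2265 normalized reads at 120 min in line 264, against 1665 and 1572 unstimulated. In line 3205 the values were 2506 and 2340 at 120 min, against 2231 and 1869, and in RAW264.7 2729 and 2918, against 1973 and 2355. The groups did not overlap in any line. The log2 fold change was 0.50 ± 0.14 in line 264 with an adjusted p of 0.067 in limma and 0.018 with the block, and 0.39 ± 0.14 in RAW264.7 with 0.11 and 0.040.

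Rps6, the substrate that gave S6 kinase its name and whose start is printed above, had 4035 and 3271 normalized reads at 120 min in RAW264.7, against 3060 and 2524 unstimulated. In line 264 it had 3269 and 3090 at 120 min, against 3010 and 2603. In each pair replicate 1 was the higher library. The log2 fold change in RAW264.7 was 0.39 ± 0.17, with an adjusted p of 0.20 in limma and 0.011 with the block, and it was 0.18 ± 0.17 in line 264 and 0.20 ± 0.17 in line 3205.

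Other members that the block called in RAW264.7 spanned both subunits and included Rps13 with a log2 fold change of 0.47, Rpl3 with 0.44, Rps20 with 0.36 and Rpsa with 0.32. Rpl3 lies at the peptidyl transferase centre, and Rpsa, also known as the laminin receptor precursor, sits at the back of the small subunit. In line 264 the block called Rpl10a at 0.49, Rpl36 and Rpl41 at 0.46, Rps20 at 0.41, Rps19 at 0.36 and Rps26 at 0.35, and in line 3205 only Rpl27 at 0.54. The lowest values in RAW264.7 belonged to Rpl22, an RNA-binding protein that ribosomes can do without, at 0.08 ± 0.12, and to Rpl15 at 0.08 ± 0.15.

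The P-stalk proteins, which bring elongation factors to the large subunit, had positive values at 120 min in every line. Rplp0 lay under the family median in each line, and Rplp1 did so in line 3205. Rplp0, the base of the stalk, had a log2 fold change at 120 min of 0.17 ± 0.12 in line 264, 0.11 ± 0.12 in line 3205 and 0.26 ± 0.12 in RAW264.7. Rplp1 had 0.35 ± 0.14, 0.01 ± 0.14 and 0.31 ± 0.14, and Rplp2 0.31 ± 0.14, 0.22 ± 0.14 and 0.30 ± 0.14. None passed limma's test with or without the block. Of the proteins that bind Mdm2, Rpl11 had 0.35 ± 0.17, 0.16 ± 0.17 and 0.29 ± 0.17 in the same order, and Rpl5 had 0.07 ± 0.18, -0.08 ± 0.18 and 0.19 ± 0.18. Rps3, a small subunit protein also described as a partner of NF-κB, had 0.17 ± 0.14, 0.12 ± 0.14 and 0.27 ± 0.14, and Rpl13a, known from translational silencing in interferon-treated human monocytes, 0.28 ± 0.17, 0.10 ± 0.17 and 0.20 ± 0.17.

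Members whose annotated start carried the pyrimidine tract had medians close to those of members without it there. Among the 13 with it the median log2 fold change at 120 min was 0.23 in line 264, 0.20 in line 3205 and 0.29 in RAW264.7, and among the 43 with a promoter entry and no tract at the start it was 0.26, 0.15 and 0.27. Among these 13 the values in RAW264.7 ran from 0.08 for Rpl15 to 0.45 for Rpl28. Some of the 43, Rpl31 among them, held the longer tract near their start. The comparison is therefore not one of members with and without any tract.

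**Figure D2:**
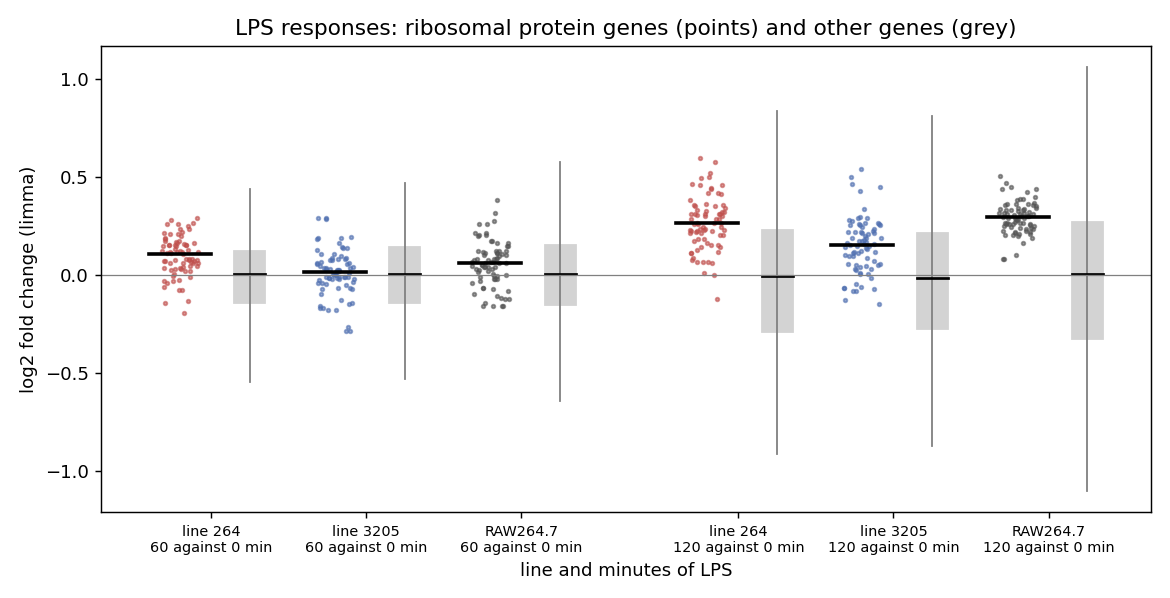
Points are limma log2 fold changes of the 76 ribosomal protein genes in each line at 60 and 120 min of LPS against 0 min, black bars their medians, and the grey boxes and whiskers the quartiles and the 5th to 95th percentiles of the other genes that average 50 normalized reads or more. At 120 min the members' medians are 0.26 in line 264, 0.15 in line 3205 and 0.29 in RAW264.7. The members are packed more closely there than the other genes, which were not matched to them in level.

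After 60 min the members lay closer to their unstimulated level than at the later time on the scale of normalized reads. On library totals the members did so in line 264 only, and lay farther from that level in line 3205 and RAW264.7. Their median log2 fold change was 0.11 in line 264, 0.01 in line 3205 and 0.06 in RAW264.7, with 64, 42 and 54 of 76 positive, and on library totals -0.006, -0.10 and -0.07, where the median of all genes was -0.12, -0.12 and -0.13. Limma called 0 members, beside 1.19%, 1.23% and 2.98% of all genes, with 1, 0 and 0 members and 7.51%, 7.53% and 12.8% of all genes at an unadjusted p under 0.05. The block, edgeR and DESeq2 called 0 as well. Rps13 in RAW264.7 had 1425 and 1193 normalized reads at 60 min, against 1271 and 914 unstimulated, with a log2 fold change of 0.28 ± 0.18. The replicates of that gene differed by more than its response.

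Whether the response differed between lines was tested directly. The LPS response of line 264 minus that of RAW264.7 had a median of 0.04 over the members at 60 min and -0.01 at 120 min, and that of line 3205 minus RAW264.7 had -0.04 and -0.15, with 10 of 76 members positive at 120 min in line 3205. On library totals the last value was -0.06 with 25 of 76 positive. Limma called 0 members in each of the 4 comparisons, in which 0.0173% and 0.0229% of all genes were called for line 264 and 0.00578% and 0.00573% for line 3205 at 60 and 120 min. The block, edgeR and DESeq2 called 0 members too, and 0 members had an unadjusted p under 0.05 in limma. The smaller median of line 3205 at 120 min was therefore not shown to differ from that of RAW264.7 for any member.

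Against RAW264.7 the ribosomal protein genes of the derived lines mostly stood near or slightly below the parental level, with a few exceptions, most of them on chromosomes 1 and 15. Limma called 1 member higher in unstimulated line 264 and 5 in unstimulated line 3205, against 7.61% and 8.42% of all genes. At 60 min it called 1 member higher in line 264 and 5 in line 3205, against 8.46% and 8.95%, and 1 member lower in line 3205, against 6.46%. The share of members called higher, 1.32% in line 264 and 6.58% in line 3205 at either time, was thus not above that of genes at large. The median member had a log2 fold change of -0.09 in unstimulated line 264 and -0.02 in unstimulated line 3205, and -0.07 in both lines at 60 min.

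Rpl7, a large subunit protein encoded on chromosome 1, was the member called in both lines. It had 29837 and 27746 normalized reads in unstimulated line 264 and 30038 and 31706 in line 3205, against 21710 and 20502 in RAW264.7. At 60 min it had 30019 and 30105 in line 264 and 29942 and 29814 in line 3205, against 22525 and 21978 in RAW264.7. The derived lines lay above RAW264.7 without overlap. Its log2 fold change at 0 min was 0.45 ± 0.11 in line 264 (adjusted p 0.024 in limma) and 0.55 ± 0.11 in line 3205 (0.0088), and at 60 min it was 0.43 ± 0.11 in both (0.025 and 0.028).

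At 120 min Rpl7 had 30998 and 30018 normalized reads in line 264 and 32724 and 30988 in line 3205, against 27562 and 25578 in RAW264.7. The lines still did not overlap, but the log2 fold changes were 0.20 ± 0.12 and 0.26 ± 0.12 and not called. With LPS for 120 min Rpl7 had a log2 fold change of 0.08 ± 0.12 in line 264 and 0.33 ± 0.12 in RAW264.7, the second called with the block only (adjusted p 0.026 in limma). Rpl7l1, a relative of Rpl7 that acts in ribosome assembly, stood at 0.15 to 0.24 of the Rpl7 value in line 264 and 0.18 to 0.24 in line 3205, against 0.31 to 0.39 in RAW264.7.

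Rpl8, which contacts the peptidyl transferase centre, had 59658 and 60813 normalized reads in unstimulated line 3205 and 36159 and 38193 in line 264, against 39074 and 42794 in RAW264.7. Line 3205 lay above RAW264.7 and line 264 below it. Its log2 fold change there was 0.56 ± 0.13 at 0 min and 0.57 ± 0.13 at 60 min (adjusted p 0.015 and 0.013 in limma), and 0.41 ± 0.14 at 120 min (0.084). Rpl30, which binds a kink-turn in its own transcript in yeast, had 1166 and 1433 in line 3205, against 702 and 837 in RAW264.7, with 0.75 ± 0.22 at 0 min (0.045), 0.72 ± 0.22 at 60 min (0.051) and 0.67 ± 0.23 at 120 min (0.085).

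Rpl37 stood at 3264 and 3117 normalized reads in line 3205 at 60 min, against 2252 and 1980 in RAW264.7, a log2 fold change of 0.59 ± 0.16 (adjusted p 0.033 in limma). Rpl31, which lies at the exit of the peptide tunnel, had 945 and 797 in unstimulated line 3205, against 616 and 633 in RAW264.7, with 0.47 ± 0.13 (0.037). At 60 min its log2 fold change was 0.44 ± 0.13 (0.0496). Rpl32 had 34201 and 36459 in unstimulated line 3205, against 24222 and 23698 in RAW264.7, with 0.56 ± 0.13 (0.020), and 30887 and 33044 at 60 min, against 23009 and 22690, with 0.48 ± 0.13 (0.035). None of these groups overlapped. In line 264 the same genes at 0 min had values from -0.25 for Rpl37 to 0.22 for Rpl31 and were not called.

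Rps4x, the X-linked small subunit protein, was the member called lower. It had 12893 and 12214 normalized reads in line 3205 at 60 min and 15111 and 15285 in line 264, against 17199 and 16042 in RAW264.7. The log2 fold change in line 3205 was -0.40 ± 0.11 (adjusted p 0.032 in limma, 0.053 in edgeR). At 120 min it was -0.40 ± 0.13 (0.064, and 0.0076 with the block) and at 0 min -0.21 ± 0.11 (0.27). Leaving out any of the 4 libraries compared ended the calls at 60 min for each member named here, and the calls at 0 min fell to 0 in line 264 without either of its libraries or without RAW264.7 replicate 2. In unstimulated line 3205 there were 3 and 4 calls without its replicate 1 and 2, and 1 and 0 without RAW264.7 replicate 1 and 2.

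**Figure D3:**
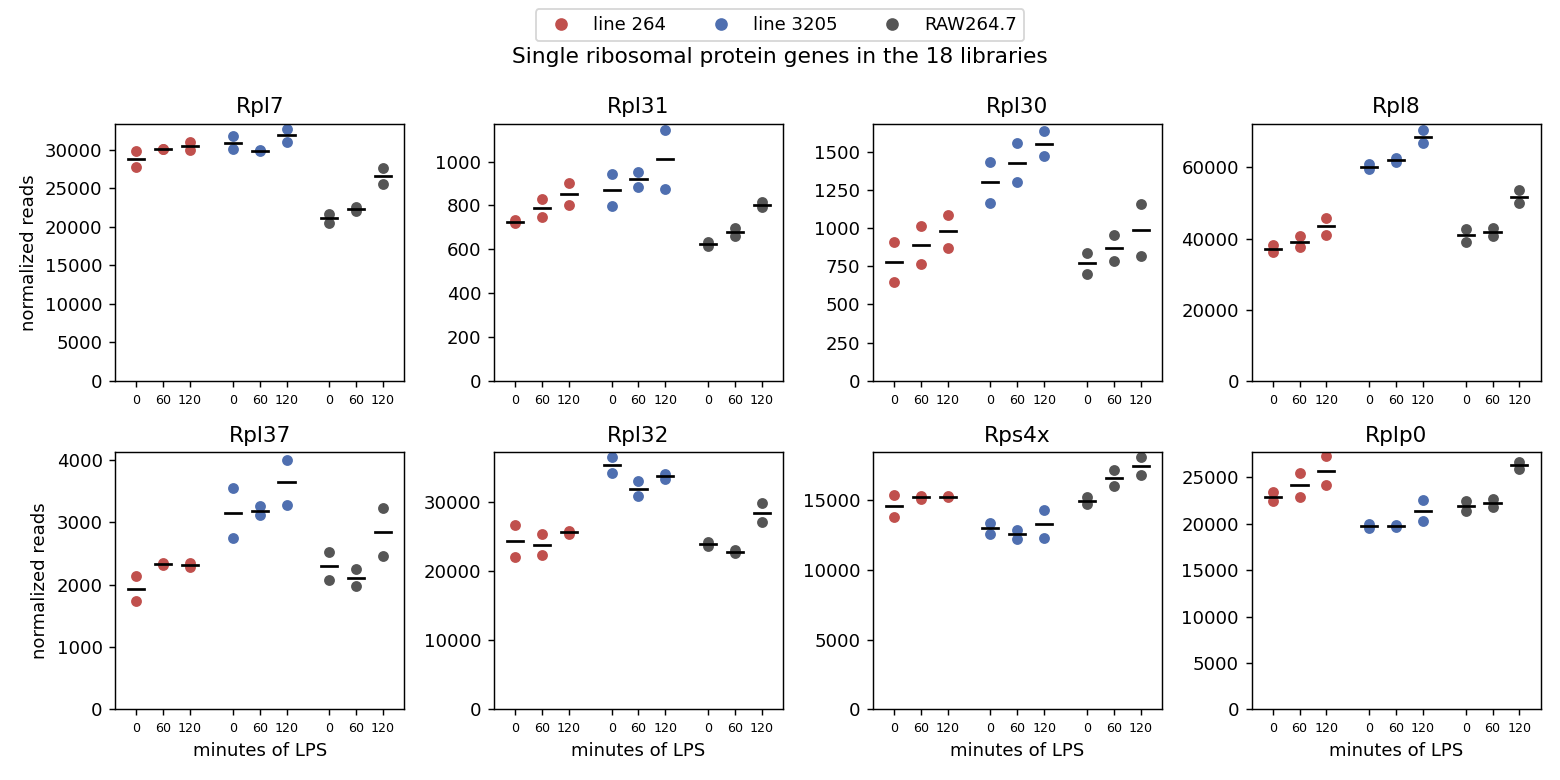
Normalized reads of 8 ribosomal protein genes in each of the 18 libraries, by line and minutes of LPS, with points for libraries and black bars for the mean of 2. Rpl7 lies higher in lines 264 and 3205 than in RAW264.7, Rpl31, Rpl30, Rpl8, Rpl37 and Rpl32 lie highest in line 3205, and Rps4x lies lowest there.

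The positions of these genes were read from RefSeq (GRCm38.p6). Rpl7, Rpl31 and Rpl37a lie on chromosome 1, Rpl30, Rpl8, Rpl37 and Rpl3 on chromosome 15, Rpl32 on chromosome 6 and Rps4x on X. Other genes on chromosome 1 that averaged 50 normalized reads or more had a median log2 fold change at 0 min of 0.44 in line 264 and 0.42 in line 3205 (602 genes). On chromosome 15 the median was -0.02 in line 264 and 0.51 in line 3205 (406 genes), where 87.7% were positive. On chromosome 19, which holds no member, it was 0.50 in line 264 and -0.09 in line 3205. The medians of the other 17 chromosomes ran from -0.13 to 0.01 in line 264 and from -0.10 to -0.02 in line 3205.

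The called members on chromosomes 1 and 15 stood near the median of their neighbours, and Rpl32 stood above and Rps4x below theirs. In unstimulated line 3205 the genes within 10 Mb of Rpl7 had a median of 0.51 (32 genes), those near Rpl31 0.49 (67), those near Rpl30 0.66 (41), those near Rpl8 0.50 (168) and those near Rpl37 0.49 (33). The 122 genes near Rpl32 had a median of -0.04, and at 60 min the 60 genes near Rps4x had -0.15. In line 264 the genes near Rpl7 had 0.42, and those near Rpl30 and Rpl8 -0.11 and -0.02. On chromosome 1 in line 3205 stretches of 20 Mb up to 160 Mb had medians of 0.44 to 0.62, and both stretches beyond it -0.01 and -0.03, while line 264 had 0.24 to 0.56 along the whole chromosome. All 3 members there lie below 160 Mb. The median of the members in unstimulated line 3205 was 0.47 on chromosome 1, 0.50 on chromosome 15 and -0.04 over the 69 elsewhere.

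When the median of a gene's neighbours was subtracted, an alternative chosen after seeing the data, limma called Rpl32 alone at 0 min, with 0.52 in line 3205 (adjusted p 0.022). Rpl7 then had 0.07, Rpl30 0.08, Rpl8 0.07, Rpl31 -0.05 and Rpl37 -0.10 there. It called 0 members at 60 min in either line, and at 120 min Rps20 at -0.51 in line 3205 (0.037). The cause of the values shared with neighbours was not tested. Across the 76 members Pearson's r between a member's log2 fold change and that of its neighbours was 0.72 in unstimulated line 3205 and 0.45 in line 264, as a description over genes of the same libraries.

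**Figure D4:**
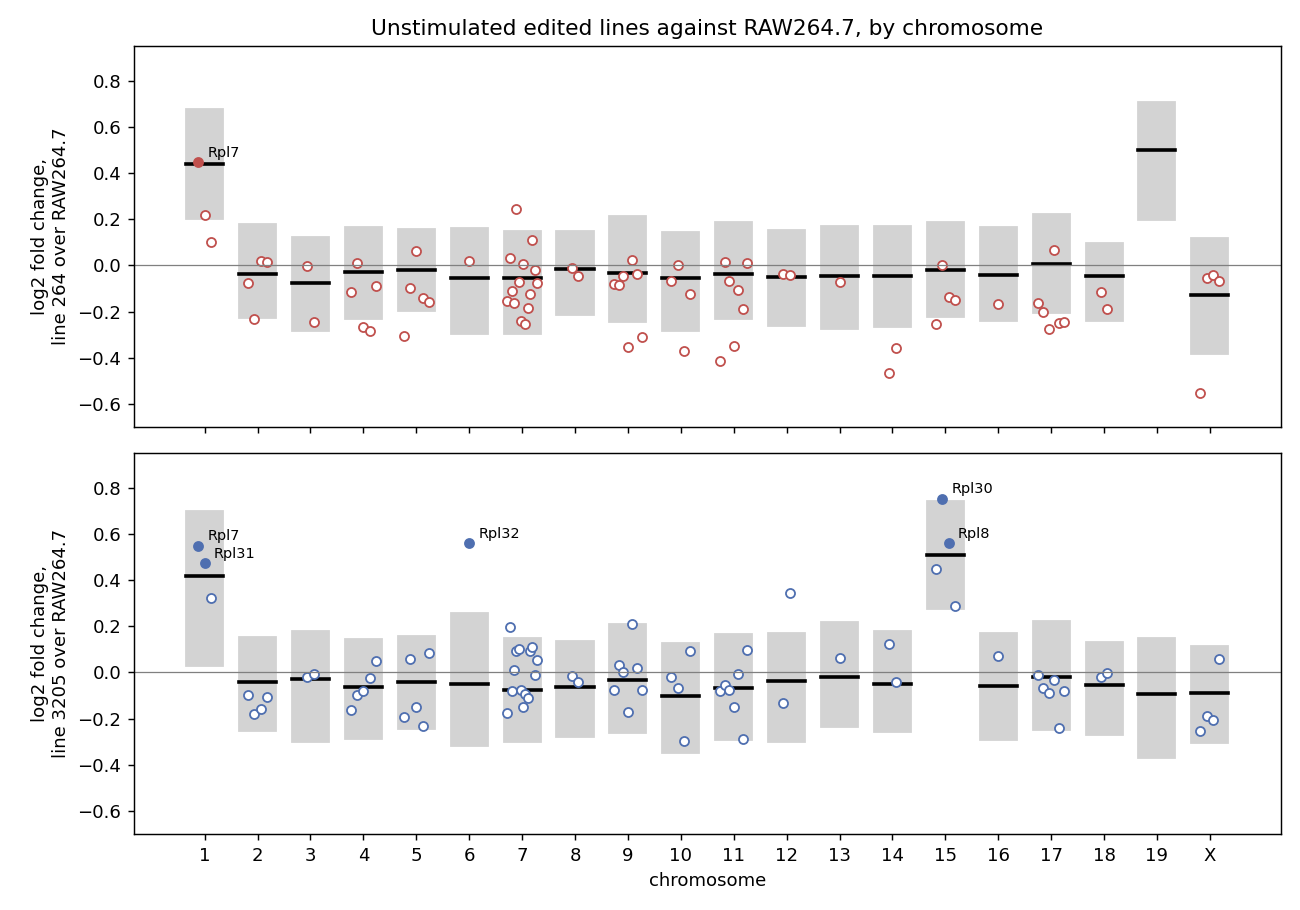
Points are limma log2 fold changes at 0 min of the ribosomal protein genes in line 264 (top) and line 3205 (bottom) over RAW264.7, by chromosome, with called members filled and named, and grey boxes and black bars give the quartiles and medians of the other genes that average 50 normalized reads or more. In line 3205 the members on chromosomes 1 and 15 sit with the raised medians of 0.42 and 0.51, and Rpl32 on chromosome 6 sits alone above its own.

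At 120 min limma called 0 members in either line against RAW264.7, beside 13.5% of all genes in line 264 and 13.9% in line 3205, with 3 and 14 members and 25.1% and 26.6% of all genes at an unadjusted p under 0.05. EdgeR called 0 in both, beside 11.7% and 12.7% of all genes. DESeq2 called 0 members in line 264, beside 8.62% of all genes higher and 7.18% lower. In line 3205 it called 2 higher and 8 lower, beside 9.38% and 7.95%. With the block limma called 3 members lower in line 264 and 12 lower and 3 higher in line 3205, beside 11.8% and 12.6% of all genes called lower, and 14.7% called higher in line 3205. On library totals with the block these counts were 1 lower and 1 higher in line 264, beside 9.86% and 14.9% of all genes, and 0 lower and 6 higher in line 3205, beside 8.68% and 19.4%. The median member had -0.14 in line 264 and -0.18 in line 3205, and -0.08 and -0.04 on library totals, where the median gene stood at 0.07 and 0.14. Both libraries of the derived line lay below both of RAW264.7 for 34 members in line 264 and 34 in line 3205, beside 26.3% and 26% of all genes. They lay above both for 1 and 7 members, beside 25.8% and 27.4%.

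Among the members that the block placed lower in a derived line was Rpl15, a large subunit protein whose start is printed above. It had 1162 and 1221 normalized reads in unstimulated line 264, against 1824 and 1484 in RAW264.7, and 1365 and 1228 at 60 min, against 1973 and 1571. Its log2 fold change was -0.47 ± 0.16 and -0.44 ± 0.16 (adjusted p 0.10 and 0.11 in limma, 0.0096 and 0.011 with the block), and -0.34 ± 0.15 at 120 min (0.20 and 0.040). Rpl15 in line 3205 had 0.12 ± 0.16 at 0 min. Rpl9 had -0.43 ± 0.16 in line 264 and -0.37 ± 0.16 in line 3205 at 120 min, with 0.010 and 0.020 under the block. Rps20 had 7937 and 7305 in line 3205 at 120 min, against 11026 and 9269 in RAW264.7, with -0.41 ± 0.14 (0.087 and 0.0098). Rps27a, given above for LPS, had -0.41 ± 0.14 in unstimulated line 264 (0.088 and 0.039).

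Of the P-stalk, Rplp0 had 19991 and 19493 normalized reads in unstimulated line 3205, against 21381 and 22415 in RAW264.7, and 22494 and 20251 at 120 min, against 25924 and 26598. Line 3205 lay below RAW264.7 at both times, by -0.15 ± 0.11 and -0.30 ± 0.12, and neither passed the test. Rplp1 and Rplp2 had -0.27 ± 0.14 and -0.02 ± 0.14 in line 3205 at 120 min. The X-linked Rpl10, which joins the large subunit last, had -0.19 ± 0.10 in unstimulated line 3205 and -0.06 ± 0.10 in line 264. Rpl5 and Rpl11 had 0.06 ± 0.16 and -0.02 ± 0.19 in unstimulated line 3205, and -0.10 ± 0.16 and -0.29 ± 0.19 in line 264, and none passed the test.

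Some members differed more between the replicates than between lines or times. Rps27 had 1438 in replicate 1 and 914 in replicate 2 of unstimulated line 264, 1168 and 1096 in line 3205, and 1486 and 888 in RAW264.7. Its relative Rps27l, a p53-responsive gene, stood at 1.95 and 3.77 of the Rps27 value in unstimulated line 264, 2.85 and 3.41 in line 3205, and 2.42 and 4.93 in RAW264.7. Rps27l over Rps27 was higher in replicate 2 in each of the 9 groups. Rpl39, a short protein of the exit tunnel encoded on X, had 2622 and 2129 in unstimulated line 264, 3787 and 2222 in line 3205, and 2506 and 4775 in RAW264.7. The libraries with the higher mitochondrial share were the replicate 2 libraries, and the part of that in these differences was not tested.

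Genes that build ribosomes had larger values with LPS than the ribosomal proteins themselves. Of 49 assembly factors tested, limma called 6 higher in line 264, 5 in line 3205 and 6 in RAW264.7 at 120 min and 0 lower, with medians of 0.44, 0.39 and 0.40, where 2.88%, 2.89% and 5.08% of all genes were called higher. On library totals 4, 3 and 3 were higher, beside 2.22%, 2.18% and 3.49% of all genes, with medians of 0.25, 0.24 and 0.15. Gtpbp4, a GTPase of large subunit assembly, had 11919 and 12375 normalized reads at 120 min in line 264, against 5475 and 6999 unstimulated, 10966 and 11632 against 5103 and 6825 in line 3205, and 14950 and 14510 against 7070 and 6661 in RAW264.7. The log2 fold changes were 0.97 ± 0.16, 0.94 ± 0.16 and 1.10 ± 0.16 (adjusted p 0.0078, 0.010 and 0.0025 in limma). Eif6, which keeps the subunits apart until the large one is mature, had 0.73 ± 0.14, 0.75 ± 0.14 and 0.82 ± 0.14 (0.016, 0.015 and 0.0051). Rrs1 was called in line 264 at 1.46 ± 0.32 and in line 3205 at 1.34 ± 0.32.

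Translation factors and other genes of the same mRNA class were not called with LPS. Of 18 tested, 0 passed limma's test at 120 min, with medians of 0.17 in line 264, 0.09 in line 3205 and 0.26 in RAW264.7, and -0.02, -0.07 and 0.01 on library totals. Between lines, 5 of them were called higher in unstimulated line 3205 and 1 in line 264, beside 8.42% and 7.61% of all genes. These were Eif3l at 0.63 ± 0.13, Eif3e at 0.64 ± 0.14 and Eif3h at 0.61 ± 0.14 of the initiation factor Eif3, with Eif4b and Hnrnpa1, all 5 on chromosome 15, and in line 264 Eef1g of the elongation factor at 0.43 ± 0.10 on chromosome 19. With the neighbour median subtracted, 0 of the 18 were called in either unstimulated line. Mitochondrial ribosomal proteins, 76 tested, had medians of 0.09, 0.00 and 0.12 at 120 min in line 264, line 3205 and RAW264.7. Of these, 0, 1 and 2 were called higher and 0, 0 and 1 lower. Among all genes, 2.88%, 2.89% and 5.08% were called higher there, and 5.43%, 5.03% and 10.6% in either direction.

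Of 11 transcription factors reported at ribosomal protein promoters or as their regulators, Myc moved most. It had 242 and 197 normalized reads at 120 min in line 264, against 3.64 and 2.57 unstimulated, 1603 and 1318 against 14.6 and 3.59 in line 3205, and 3977 and 3540 against 133 and 42.8 in RAW264.7. The log2 fold changes were 5.75 ± 0.60, 7.43 ± 0.60 and 5.61 ± 0.60 (adjusted p 0.00048, 9.3e-05 and 0.00038 in limma). In unstimulated cells Myc was lower than RAW264.7 by -4.24 ± 0.67 in line 264 and -3.18 ± 0.67 in line 3205, on values plus 1 that understate changes near 0 reads. Myc thus differed between lines by far more than any ribosomal protein gene did, and no relation between them was tested.

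Of 11 genes of ribosome surveillance and p53, unstimulated line 3205 had 4 called lower and 1 higher. Unstimulated line 264 had 0 lower and 1 higher. Among all genes, 5.89% and 5.57% were called lower in lines 3205 and 264, and 8.42% and 7.61% higher. Phlda3, a p53 target that restrains Akt, had 0.856 and 0 normalized reads in unstimulated line 3205, against 86.0 and 211 in RAW264.7. Bbc3, which encodes the death factor Puma, had 310 and 289 in line 3205, against 838 and 609 in RAW264.7, with -1.25 ± 0.22 (adjusted p 0.0038 in limma). Mdm2 had -0.88 ± 0.23 (0.031) and Cdkn1a, the cell cycle inhibitor p21, -1.26 ± 0.33 (0.031). The gene called higher in both lines was Mdm4 on chromosome 1, at 0.64 ± 0.13 in line 264 and 0.45 ± 0.13 in line 3205, and it was not called in either line with the neighbour median subtracted. With LPS for 120 min Cdkn1a was called higher in all 3 lines, at 2.39 ± 0.32, 2.16 ± 0.32 and 2.19 ± 0.32.

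The genes whose log2 values followed the median member most closely over the 12 libraries of the 120 min table were Ndufa2, Ndufc1, Ube2n, Ost4 and Prkab2, with Pearson's r of 0.95, 0.92, 0.92, 0.91 and 0.91 among 9624 genes. Over the 12 libraries of the 60 min table they were Sys1, Josd2, Ndufb2, Atp5e and Ndufa2, with 0.89, 0.87, 0.87, 0.86 and 0.85 among 9614. Ndufa2, a subunit of mitochondrial complex I, was the gene in both lists. The members' own correlation with that median had a median of 0.66 and 0.42 in these tables, so single members followed the family less closely than these genes did. The libraries share a scaling and the 0 min samples, and the values are descriptions.

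Reads of ribosomal protein genes can be lost to processed pseudogenes, which are near copies of the mRNA. Of the 76 members, 56 had at least 1 gene named as its pseudogene in the tables, and in 25 these held over 10% and in 12 over 50% of the reads of member and copies together. The share was 90.1% for Rpl38, 88.0% for Rpl23a, 86.0% for Rpl3, 79.5% for Rpl10a and 73.5% for Rpl31. It was 61.9% for Rps13, 60.0% for Rpl36, 59.1% for Rpl9 and 57.1% for Rps6, and Rps16, Rpl14 and Rpl19 made up the 12, so the level of these members is uncertain. Lower shares were 41.9% for Rpsa, 38.9% for Rps27a, 26.9% for Rps26, 23.6% for Rpl39, 14.7% for Rps19 and for Rpl28, 1.44% for Rpl30, 0.258% for Rpl15 and 0.0198% for Rpl32, and Rpl7, Rpl8, Rpl37 and Rps4x had no such gene. No strand setting is given in the sources used here, and reads that matched several copies may not have been counted at all.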

How the data were processed

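RNA was measured in 18 libraries of 3 lines, and the other 56 samples of the series were not analysed here. The submitters' processing notes name Trim Galore 0.5.0 for trimming, STAR 2.4.2 and the build mm10 for alignment, featureCounts (Subread 1.4.6) for counting, and DESeq2 with R 3.4.0. The deposited signal is a read count per gene divided by the authors' size factor, because multiplying by it gave whole reads, within 0.1 read, for 100% of values. Deposited p-values and log2 fold changes were not used.

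Limma 3.58.1 in R 4.3.3 was fitted to log2(value + 1), with an intensity trend, 1 mean per group and the 12 libraries of each table. The 0 and 60 min comparisons came from the 60 min table and the 120 min ones from the other. The unstimulated libraries stand in both tables, and their values there differed by at most 0.047 normalized reads. Genes under a mean of 1 were left out, so 17301 and 17450 were tested, with Benjamini-Hochberg adjustment over all of them and a threshold of 0.05. There were 16 comparisons, 6 between lines, 6 of LPS and 4 of the difference between responses. Fold changes on values plus 1 understate changes of genes near 0 reads.

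Replicate 1 minus replicate 2 correlated between every pair of groups (r 0.16 to 0.56 in the 60 min table and 0.22 to 0.56 in the 120 min table, 15 pairs each), so replicate numbers, taken from the titles, were treated as pairing and a block was run beside each result. Over the members alone, unstimulated line 3205 had a negative r with RAW264.7 at 0, 60 and 120 min (-0.34, -0.28 and -0.28). Its r with line 264 at 60 and 120 min was also negative (-0.11 and -0.24). All other pairs were positive over the members. The pairing that the block assumes thus did not hold for the members in those pairs. Replicates of a group differed by far more than counting error, with a chi-square of 25.4 to 154 per gene.

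Further settings were no filter, pseudocounts of 0.5 and 5, TMM scaling, scaling to the members' median, edgeR 4.0.16 and DESeq2 1.42.0 on the recovered reads, and leaving out each library. Those chosen after seeing the data were the block with edgeR or with the members' median, adding pseudogene values, subtracting the median of genes within 10 Mb, and library totals, the last pair also with the block. Named members are called ones (up to 6 per direction) and a panel of 24 symbols, with up to 3 called genes of each other list per comparison. Others were named after their values were seen. The members and lists were chosen with earlier results of these data known. Positions and starts are from RefSeq (GRCm38.p6). Python 3.11.15 with numpy 2.4.6, pandas 2.3.3 and matplotlib 3.10.9 was used for tables and plots, and the fits were tested on simulated data. Results of items withheld for evaluation, if any, are not reported here.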

Additional observations from a re-analysis of the deposited data

How the results depend on the processing

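The 2 libraries of a group set the limits, since a member's SE in limma was mostly above 0.1 on the log2 scale and single libraries decided most calls. Counts of members are given with those of the reported fit in brackets. Shares of all genes called under each setting are not set beside the counts in this section. The counts therefore describe how calls move between settings, and not an excess over genes at large. With the replicate block the calls of members were 1 higher and 4 lower (1 and 0) in line 264 at 0 and again at 60 min and 3 lower (0) at 120 min. In line 3205 they were 6 higher (5) at 0 min, 6 higher and 4 lower (5 and 1) at 60 min, and 3 higher and 12 lower (0 and 0) at 120 min. LPS for 120 min had 10, 1 and 20 higher (0 each) in line 264, line 3205 and RAW264.7, and no other count of called members changed by over 1.5 times with the block. EdgeR with the block called 4, 2 and 1 lower in line 264 at 0, 60 and 120 min, 3 lower at 60 min and 4 higher and 4 lower at 120 min in line 3205, and 9, 3 and 6 higher with LPS. EdgeR alone called 0 lower in line 3205 at 60 min. DESeq2 called 1 lower in unstimulated line 264, 2 higher and 8 lower in line 3205 at 120 min, and 7, 1 and 7 higher with LPS. Without the filter 3 members were higher in line 3205 at 60 min.

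Scaling to the members' median, which moved the median gene by as much as -0.38 at 120 min of LPS, gave 0 calls, and with the block 1, 2 and 1 higher in line 3205 at 0, 60 and 120 min and 0 higher in line 264 at 0 and 60 min. Library totals gave 0 lower at 60 min and 2 higher at 120 min in line 3205, and with the block 2, 2 and 1 lower in line 264 at 0, 60 and 120 min, 1 higher there and 6 higher in line 3205 at 120 min, and 1 higher with LPS in line 264. Subtracting the neighbours' median gave 0 higher in line 264 at 0 and 60 min, 1 and 0 higher in line 3205 at 0 and 60 min, 0 lower there at 60 min, 1 lower at 120 min and 3 higher with LPS in RAW264.7. With the block it gave 0 higher and 1, 1 and 2 lower in line 264, 2 higher at 0 min, 1 higher and 4 lower at 60 min and 8 lower at 120 min in line 3205, and 15, 1 and 22 higher with LPS. It reversed Rpl31 in line 3205 to -0.046 at 0 min and -0.11 at 60 min, Rpl8 to -0.035 at 60 min and -0.10 at 120 min, Rpl37 to -0.10 at 0 min and -0.30 at 120 min, and, among genes of other lists, Eef1g in line 264 to -0.072 and Mdm4 in line 3205 to -0.021 at 0 min, with or without the block. The members' median reversed Rps26 with LPS in line 264 to -0.014. The cause was not tested.

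Leaving out 1 library at a time left 0 to 1 higher and 0 to 1 lower in unstimulated line 264, 0 higher in line 264 at 60 min, 0 to 4 higher in unstimulated line 3205, and 0 higher and 0 lower in line 3205 at 60 min.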
